A study of Rattus norvegicus with 30 samples.

Results

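Transcription factor genes known for their induction in injured peripheral nerves or their neurons were followed over time in the 2 tissues of a rat nerve transection study. The 10 genes were Atf3, Jun, Fos, Egr1, Sox11, Stat3, Klf4, Klf6, Smad1 and Cebpb. Every probe that the array design names after one of them was used. The genes were taken by name and not by their values, though with earlier results of these data known. They are 10 of the 35287 gene or transcript names on the array, read by 13 of its 41012 gene probes: Stat3, Klf6 and Smad1 had 2 probes each and the other genes had 1. All 13 probes were bright enough to be tested in both tissues.

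The animals were adult male Sprague-Dawley rats in which, under intraperitoneal anaesthesia with trichloroacetaldehyde monohydrate, magnesium sulfate and sodium pentobarbital, a piece of the left sciatic nerve was cut out at mid-thigh. The proximal nerve segments (SN) and the L4-6 dorsal root ganglia (DRG) were taken at 0, 1, 4, 7 and 14 d after the transection, and the 10 groups of tissue and day had 3 arrays each, 30 in all, each hybridised with RNA of 1 sample in 1 colour. What was done to the rats of 0 d is not stated. The 0 d group is the control of every comparison with injury, and the 4 comparisons of a tissue share its 3 arrays of 0 d. The number of rats behind an array is not stated, so p-values measure only the spread between these samples.

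A DRG holds the cell bodies of sensory neurons with their satellite glia, whereas the nerve holds their axons, Schwann cells, fibroblasts and, after injury, invading macrophages. Cutting an axon activates a stress signal that travels back to the cell body through the kinase DLK and its target JNK, which phosphorylates JUN, and the cytokine receptor gp130 activates STAT3 through JAK kinases. ATF3, JUN, SOX11, KLF6, STAT3 and SMAD1 belong to the factors tied to regrowth of the injured axon, KLF4 is known as a brake on axon growth, FOS and EGR1 are immediate early factors that many stimuli switch on within minutes, and C/EBP beta, the product of Cebpb, serves in acute phase and inflammatory responses. In Schwann cells, JUN drives the switch from the myelinating to the repair state.

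What the arrays read of these genes is a stretch of 60 bases or fewer of the transcript. The probes lie, in genome build rn4, at chr13:107191691-107191749 on the minus strand for Atf3, at chr5:115358764-115358823 (minus) for Jun, at chr6:109561099-109561158 (plus) for Fos, at chr18:27347173-27347232 (plus) for Egr1, at chr6:45142098-45142157 (minus) for Sox11, at chr5:73446994-73447053 (minus) for Klf4 and at chr3:158827280-158827339 (plus) for Cebpb. The brighter probes of the genes that have a pair lie at chr10:89821145-89821204 (minus) for Stat3, chr17:75578810-75578869 (minus) for Klf6 and chr19:30408281-30408340 (plus) for Smad1. The array design names the gene of each probe but no exon. Shown here are the probes of Fos, Sox11 and Cebpb, on which much of the nerve result rests, and the dimmer probes of Stat3 and Smad1, whose 60 bases spread over 351 and 3562 bases of the genome, so that the probe crosses at least 1 intron and reads spliced RNA.
Fos: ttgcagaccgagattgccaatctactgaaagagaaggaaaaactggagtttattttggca
Sox11: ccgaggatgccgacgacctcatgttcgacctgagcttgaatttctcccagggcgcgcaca
Cebpb: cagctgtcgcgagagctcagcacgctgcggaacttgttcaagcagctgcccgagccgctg
Stat3, dimmer probe, chr10:89823819-89824169 (minus): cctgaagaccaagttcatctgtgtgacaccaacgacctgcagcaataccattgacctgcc
Smad1, dimmer probe, chr19:30393184-30396745 (plus): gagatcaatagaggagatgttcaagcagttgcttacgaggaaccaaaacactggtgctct

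RefSeq promoters in build GRCr8 were at hand for 7 of the 10 genes (Cebpb, Klf4, Sox11, Stat3, Klf6, Egr1 and Smad1), and the 250 bases before the start were searched on both strands for the letters of motifs that these same factors bind. The AP-1 motif of FOS and JUN, TGANTCA, and the CRE motif of the ATF and CREB family, TGACGTCA, were in none of the 7, while 6.34% and 1.59% of the 33469 promoters in the table hold them. The shorter CRE core TGACG, which the full CRE contains, was in 3 of the 7 (Cebpb, Egr1 and Smad1) and in 18.2% of all. The STAT motif TTCNNNGAA was in the promoter of Klf4 alone (7.67% of all), the C/EBP motif TTNNGNAA in those of Klf4, Smad1 and Sox11 (37.2%), the EGR motif GCGGGGGCG in none (2.45%) and the GC box GGGCGG of the KLF and SP family in those of Cebpb, Klf6, Smad1 and Sox11 (30.5%). The promoters of Smad1 and Klf6, whose signal was higher in DRG after injury, and of Stat3, whose larger change was in SN, are shown with the matches in capitals; a match is a description of the letters and not a site of binding, and no match says only that these letters are not in this window.
Smad1, chr19:45417292-45417541 (plus): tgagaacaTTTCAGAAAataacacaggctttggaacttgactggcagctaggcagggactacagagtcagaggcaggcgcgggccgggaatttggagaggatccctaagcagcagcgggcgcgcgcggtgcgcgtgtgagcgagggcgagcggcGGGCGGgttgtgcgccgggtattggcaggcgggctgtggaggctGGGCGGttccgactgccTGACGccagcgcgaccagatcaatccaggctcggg
Klf6, chr17:69458479-69458728 (minus): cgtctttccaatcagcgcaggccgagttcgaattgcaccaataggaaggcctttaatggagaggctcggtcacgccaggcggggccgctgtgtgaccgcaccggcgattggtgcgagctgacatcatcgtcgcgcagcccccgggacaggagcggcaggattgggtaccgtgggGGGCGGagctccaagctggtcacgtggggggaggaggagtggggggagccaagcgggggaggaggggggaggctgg
Stat3, chr10:86363360-86363609 (minus): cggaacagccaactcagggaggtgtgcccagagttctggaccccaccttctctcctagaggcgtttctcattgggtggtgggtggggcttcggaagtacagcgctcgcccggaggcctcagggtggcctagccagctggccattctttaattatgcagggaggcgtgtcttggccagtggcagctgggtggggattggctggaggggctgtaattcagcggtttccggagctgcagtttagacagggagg

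Levels are given as normalized signal, the log2 of the processed signal minus the 75th percentile of the array, so that 0 is the brightness of that percentile and a step of 1 is a doubling. The arrays of the 3 replicates of a group correlated at r between 0.985 and 0.997 over all probes. The 6 arrays of 0 d lay on 2 slides that held no array of a later day, and 26941 to 32602 of their probes were well above background against 33079 to 35573 on the arrays of later days, so that in every comparison with 0 d the injury and the slide cannot be told apart. Levels of different genes come from different probes and were not set against each other. The tissues matched their labels: the summed linear signal of 14 sensory neuron markers, in units of the array's 75th percentile, ran from 838 to 1203 over the DRG arrays and from 9.34 to 15.5 over the SN arrays.

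**Figure D1:**
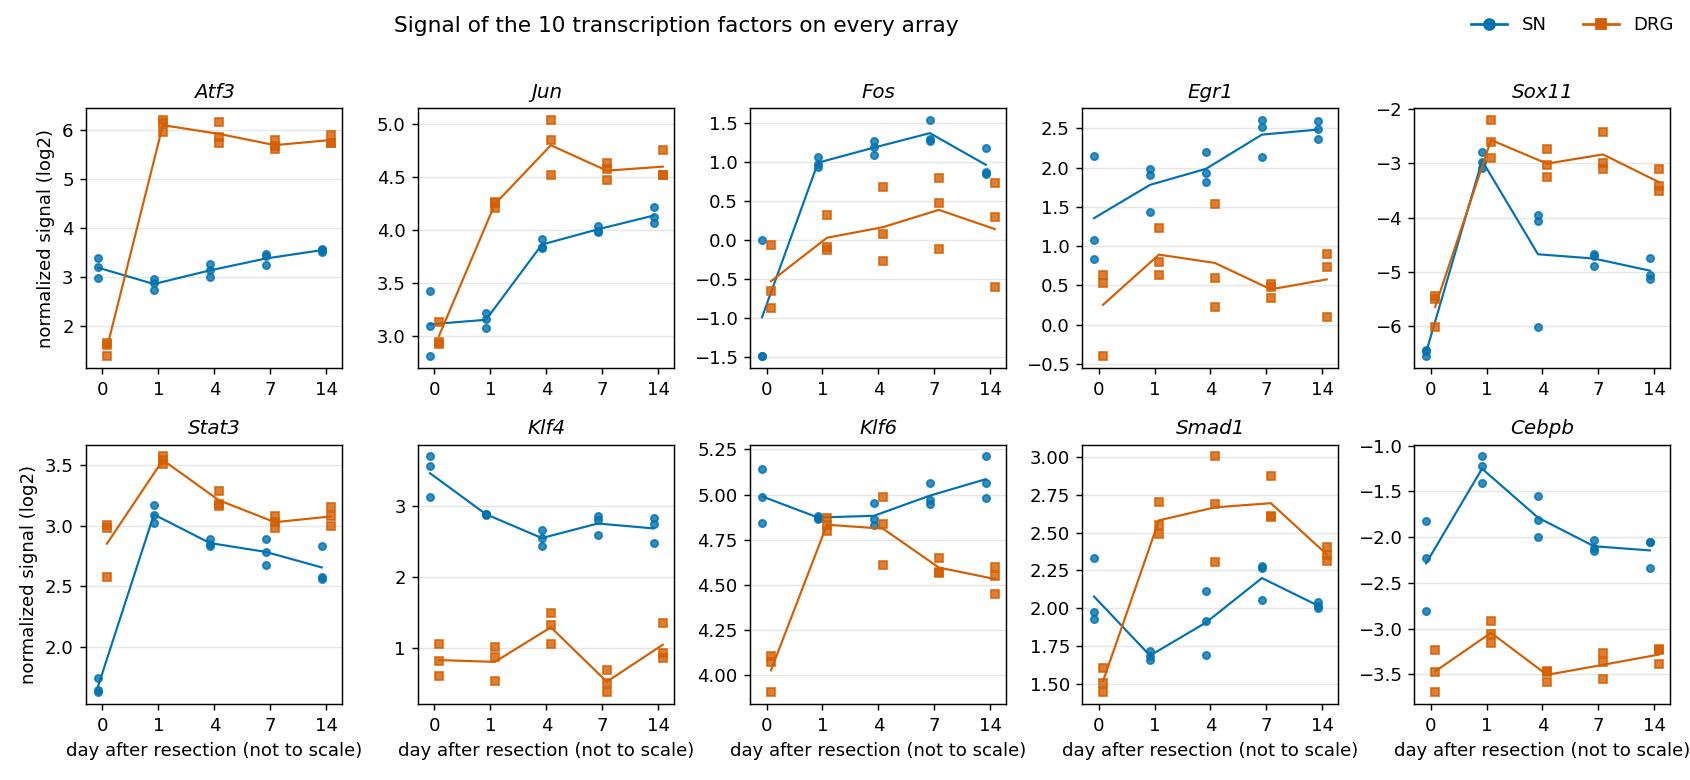
Normalized signal (log2, relative to the 75th percentile of the array) of the 10 genes against days after nerve transection in SN (circles) and DRG (squares); points are the 3 arrays of a group, lines join the group means, the day axis is not to scale and each panel has its own signal axis. Atf3 in DRG stands at 1.4 to 1.67 at 0 d and between 5.61 and 6.20 on every array of a later day, while in SN it stays between 2.75 and 3.57 on all 15 arrays.

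A gene was called upregulated or downregulated where the adjusted p was under 0.05 and the fold change over 2, with limma and Benjamini-Hochberg adjustment over all probes tested. In DRG, 4, 4, 4 and 3 of the 10 genes were called upregulated at 1, 4, 7 and 14 d, against 7.43%, 6.04%, 6.58% and 13% of all probes tested. In SN, 4, 3, 4 and 4 of the 10 were called upregulated on these days, against 18.6%, 15.9%, 18.1% and 14.3% of all probes. On 1 or more days 4 genes were called in DRG (Atf3, Jun, Sox11 and Smad1) and 6 in SN (Fos, Sox11, Stat3, Egr1, Jun and Cebpb), of which Jun and Sox11 were called in both tissues, and Klf4 and Klf6 passed on no day. The median change of the 10 genes was 0.75, 0.74, 0.74 and 0.59 on the log2 scale in DRG and 0.23, 0.56, 0.54 and 0.67 in SN, where the medians of all probes tested were 0.09, 0.14, 0.08 and 0.13 in DRG and 0.11, 0.15, 0.15 and 0.16 in SN. With normexp background correction and the 75th percentile, calls of SN fell under a threshold for Jun at 14 d (0.89), Egr1 at 14 d (0.99), Cebpb at 1 d (0.80) and Sox11 on all days, and of DRG for Smad1 at 1 d (0.91). In whole tissue, fewer cells of a type and less RNA per cell cannot be told apart.

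By limma, 0 of the 10 genes were called downregulated on any day, while 3.43%, 6.78%, 6.81% and 5.46% of all probes were in SN and 0.169%, 0.506%, 0.326% and 0.46% in DRG at 1, 4, 7 and 14 d. At an unadjusted p under 0.05 without the fold limit, 3, 1, 1 and 1 of the genes were lower than at 0 d in SN and 0 on each day in DRG, and the methods' t-test gave 2, 1, 1 and 1 in SN and 0 in DRG. With the 2-fold limit both tests gave 0. How many of all probes pass at an unadjusted p was not counted, so the counts without adjustment cannot be set against the shares above.

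**Figure D2:**
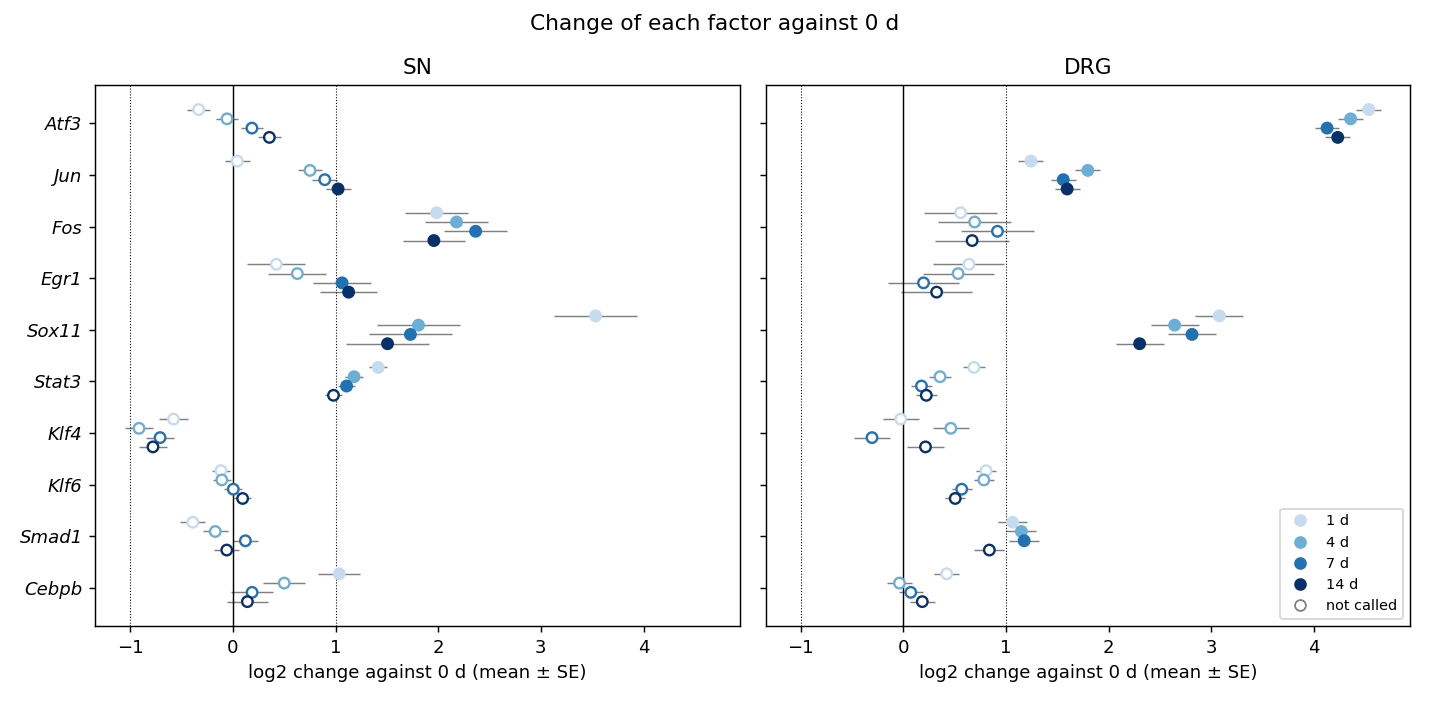
Change in normalized signal against 0 d (log2) of each gene at 1, 4, 7 and 14 d in SN and DRG, with bars of 1 standard error from the limma fit; filled points were called, open points were not, and dotted lines mark a 2-fold change. The 4 changes of Atf3 in DRG, between 4.13 and 4.53, stand apart from the rest, and those of Klf4 in SN lie below 0. Those of Sox11 in SN are measured values against a 0 d signal that was not well above background.

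Atf3 had the largest measured fold among the 10 genes, leaving aside Sox11 in SN, whose 0 d signal was not well above background. It is a stress-induced factor of the ATF/CREB family that is widely used as a marker of neurons with cut axons. In DRG the arrays read 1.4, 1.63 and 1.67 at 0 d, then 5.95, 6.20 and 6.14 at 1 d. They read 5.74, 5.86 and 6.17 at 4 d, then 5.61, 5.79 and 5.67 at 7 d, then 5.90, 5.74 and 5.74 at 14 d. Every array of a later day was far above every array of 0 d, and the later days overlapped or nearly overlapped with each other. The change against 0 d was 4.53, 4.36, 4.13 and 4.23 (SE 0.12) on the log2 scale, a fold of 17.5 to 23.1, with an adjusted p between 3.34e-10 and 1.85e-09 by limma. In SN the 0 d arrays read 2.99, 3.20 and 3.40. The later arrays of SN read 2.97, 2.87 and 2.75 at 1 d, then 3.52, 3.57 and 3.56 at 14 d, with those of 4 and 7 d between 3.0 and 3.47. Atf3 in SN was thus slightly below its starting level at 1 d (-0.33, SE 0.11, adjusted p = 0.0195 by limma) and slightly above it at 14 d (0.36, adjusted p = 0.0158), neither past 2-fold.

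Jun, the partner of FOS in the AP-1 complex, rose in both tissues. The DRG arrays read 2.93, 2.94 and 3.13 at 0 d, then 4.21, 4.26 and 4.26 at 1 d. They read 4.51, 4.85 and 5.03 at 4 d, with 4.47 to 4.75 on the 6 arrays of 7 and 14 d. The groups of 0 d and of each later day did not overlap, and the changes were 1.24, 1.80, 1.56 and 1.60 (SE 0.12), a fold of 2.37 to 3.47, with an adjusted p between 1.10e-06 and 4.04e-05. In SN the arrays read 3.09, 3.43 and 2.81 at 0 d, then 3.22, 3.08 and 3.16 at 1 d, which overlap. They then read 3.83, 3.91 and 3.84 at 4 d, 3.98, 4.04 and 3.99 at 7 d, then 4.12, 4.07 and 4.21 at 14 d, all above 0 d. The changes in SN were 0.04, 0.75, 0.90 and 1.03 (SE 0.12), with an adjusted p of 0.777, 0.00019, 4.85e-05 and 2.36e-05, and only that of 14 d, at 2.04-fold, passed the fold limit. That call was lost without replicate 3 of SN 0 d (0.88) or replicate 3 of SN 14 d (0.99), and 7 d was called without replicate 2 of SN 0 d (1.05).

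Fos, the immediate early partner of JUN, rose in SN on all 4 days. The 0 d arrays of SN read -1.49, 0.002 and -1.49, so that replicate 2 stood far above its fellows. The later arrays read 1.06, 0.93 and 0.98 at 1 d. They read 1.19, 1.27 and 1.1 at 4 d, 1.3, 1.27 and 1.54 at 7 d, then 0.88, 1.18 and 0.84 at 14 d. All 12 lay above the highest array of 0 d, and the changes were 1.98, 2.18, 2.36 and 1.96 (SE 0.30), a fold of 3.88 to 5.15, with an adjusted p between 3.22e-05 and 0.000187. The calls held without any one array, with changes from 1.71 to 2.86. That of 14 d was lost with the methods' t-test and Benjamini-Hochberg adjustment. In DRG the arrays read -0.88, -0.65 and -0.07 at 0 d and between -0.61 and 0.80 later, and the groups overlapped with 0 d on every day. The DRG changes of 0.56, 0.69, 0.92 and 0.67 (SE 0.36) did not pass (adjusted p from 0.0832 to 0.311), and 14 d was called without replicate 3 of DRG 14 d (1.04).

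Cebpb rose in SN at 1 d. In SN it read -1.82, -2.23 and -2.81 at 0 d, then -1.22, -1.41 and -1.12 at 1 d, with no overlap between the groups. At 4, 7 and 14 d the SN arrays lay between -2.33 and -1.55 and overlapped with 0 d. The change at 1 d was 1.04 (SE 0.20, adjusted p = 0.000839), and it fell under 2-fold without replicate 3 of SN 0 d (0.77) or replicate 3 of SN 1 d (0.97). It was under 2-fold with quantile normalization as well (0.88) and in the authors' values (0.87), and was not called by the methods' t-test with Benjamini-Hochberg adjustment. The later changes were 0.50, 0.19 and 0.14. In DRG the change at 1 d was 0.42 (SE 0.12, adjusted p = 0.0283), under the fold limit, and the later ones lay between -0.04 and 0.18. The summed signal of 7 neutrophil markers in SN, 1.54 to 2.60 at 0 d, was 9.11 to 16.0 at 1 d and 1.18 to 1.84 later, and its part in the values of Cebpb was not tested.

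Egr1, a zinc finger factor switched on by growth factors and by activity, was called upregulated late in SN. The 0 d arrays read 1.08, 2.15 and 0.84, with replicate 2 again the highest. Those of 7 d read 2.14, 2.52 and 2.60 and those of 14 d read 2.49, 2.37 and 2.59, while 1 and 4 d lay between 1.44 and 2.20. The changes were 0.42, 0.63, 1.06 and 1.13 (SE 0.28), with an adjusted p of 0.209, 0.0705, 0.00575 and 0.00471, and the last pair was called. Both calls rested on single arrays: 7 d fell under the fold limit without replicate 1 of SN 0 d (0.92), replicate 3 of SN 0 d (0.81) or replicate 3 of SN 7 d (0.97), and 14 d without replicate 1 (0.99) or replicate 3 (0.87) of SN 0 d, whereas 4 d was called without replicate 2 of SN 0 d (1.03). Neither was passed by the methods' t-test, even unadjusted. The DRG arrays ran from -0.40 to 0.63 at 0 d and from 0.10 to 1.54 later, and the changes of 0.20 to 0.64 (SE 0.35) did not pass.

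Klf4 had a lower signal in the injured nerve on every day. In SN it read 3.70, 3.57 and 3.14 at 0 d, then 2.90, 2.88 and 2.89 at 1 d. It then read 2.55, 2.45 and 2.67 at 4 d, 2.82, 2.86 and 2.60 at 7 d, then 2.84, 2.48 and 2.75 at 14 d. All 12 later arrays were below all 3 of 0 d, and the changes were -0.58, -0.91, -0.71 and -0.78 (SE 0.14), with an adjusted p between 0.000129 and 0.00341. None passed the fold limit, the folds being 1.49 to 1.88, and 4 d did so only without replicate 3 of SN 0 d (-1.08). In DRG the group means were 0.84, 0.81, 1.3, 0.53 and 1.05 at 0, 1, 4, 7 and 14 d, and the changes, from -0.30 to 0.46, did not pass.

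Klf6, a relative of Klf4 that is tied to axon growth, was higher after injury in DRG. It read 3.91, 4.07 and 4.10 at 0 d, 4.80, 4.83 and 4.87 at 1 d, then 4.61, 4.84 and 4.99 at 4 d. It read 4.65, 4.57 and 4.57 at 7 d, then 4.60, 4.55 and 4.45 at 14 d, so that every array of a later day was above those of 0 d. The changes were 0.81, 0.78, 0.57 and 0.51 (SE 0.10), with an adjusted p between 0.000167 and 0.00172, and with folds of 1.42 to 1.75 none was called. In SN the 15 arrays lay between 4.83 and 5.21, overlapped on every day, and gave changes between -0.12 and 0.10 (SE 0.09).

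Sox11, an HMG box factor of embryonic neurons, rose in both tissues from a level near or under background. In SN the 0 d arrays read -6.55, -6.43 and -6.46, none well above background, and the 1 d arrays -2.79, -2.97 and -3.09. They read -4.07, -3.94 and -6.01 at 4 d, -4.70, -4.67 and -4.89 at 7 d, then -5.13, -4.75 and -5.05 at 14 d, so that the peak was at 1 d and replicate 3 of 4 d stood far below its fellows. Because 0 d gives only a bound, the rise in SN was at least 10.7-fold at 1 d, at least 3.24-fold at 4 d, at least 3.07-fold at 7 d and at least 2.63-fold at 14 d, taken against the lowest signal among probes well above background on each array, with an adjusted p between 1.64e-05 and 0.00692. With normexp background correction in place of the scanner's, the SN changes were 1.48, 0.90, 0.36 and 1.05 and none was called (adjusted p from 0.0583 to 0.808). The change at 14 d was 0.86 with quantile normalization (adjusted p = 0.0701) and 0.88 in the authors' values (0.0675), both under 2-fold and not called, where the fit gave 1.51. The change at 4 d, 1.81 in the fit, was 2.48 without replicate 3 of that day and 1.44 without replicate 2, and the methods' t-test did not pass it even unadjusted. In DRG, where 1 of 3 arrays of 0 d was well above background, the arrays read -5.44, -6.01 and -5.49 at 0 d, then -2.20, -2.90 and -2.61 at 1 d. All 9 arrays of the later days lay between -3.51 and -2.42, with no overlap with 0 d. The measured DRG changes, against a 0 d group with 2 of 3 arrays not well above background, were 3.08, 2.64, 2.81 and 2.30 (SE 0.23), with an adjusted p between 5.07e-06 and 2.82e-05.

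Stat3, the factor activated by gp130 cytokines, rose in SN. It read 1.63, 1.65 and 1.75 at 0 d, 3.02, 3.09 and 3.17 at 1 d, then 2.85, 2.89 and 2.83 at 4 d. It read 2.78, 2.89 and 2.68 at 7 d, then 2.56, 2.58 and 2.83 at 14 d, with the highest level at 1 d and no overlap with 0 d on any day. The changes were 1.42, 1.18, 1.11 and 0.98 (SE 0.09), a fold of 1.97 to 2.67, with an adjusted p between 2.28e-07 and 2.61e-06, and the last missed the fold limit narrowly. In DRG it read 2.57, 2.98 and 3.0 at 0 d, then 3.51, 3.54 and 3.57 at 1 d, with 2.98 to 3.29 on the later arrays. The DRG changes of 0.69 and 0.36 at 1 and 4 d (SE 0.10) had an adjusted p of 0.000843 and 0.0229 and stayed under 2-fold, and those of 0.18 and 0.22 at 7 and 14 d did not pass.

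Smad1, which carries BMP signals to the nucleus, rose in DRG. It read 1.61, 1.5 and 1.44 at 0 d, 2.70, 2.55 and 2.49 at 1 d, then 2.31, 2.69 and 3.0 at 4 d. It read 2.87, 2.61 and 2.60 at 7 d, then 2.40, 2.31 and 2.35 at 14 d, all above 0 d. The changes were 1.06, 1.15, 1.18 and 0.84 (SE 0.15), a fold of 1.79 to 2.26, with an adjusted p between 0.000161 and 0.000988, and 1, 4 and 7 d were called; without replicate 3 of DRG 4 d, the value of 4 d was 0.98. With normexp and quantile normalization 1 d (0.93) and 4 d (0.98) were under 2-fold, and 4 d was no longer called by the t-test of the methods once adjusted. In SN the means of this brighter probe were 2.08, 1.69, 1.91, 2.20 and 2.02 at 0, 1, 4, 7 and 14 d. Its change at 1 d, -0.39 (SE 0.12, adjusted p = 0.0144), was the one with an adjusted p under 0.05. The dimmer probe did not fall at 1 d (0.01, adjusted p = 0.95 by limma). It was higher at 7 d (0.55, adjusted p = 0.00368) and 14 d (0.34, adjusted p = 0.0456), under 2-fold.

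Whether a gene changed differently in the nerve and in the ganglion was tested as the SN change minus the DRG change in 1 fit of all 30 arrays, at an adjusted p under 0.05. It differed for 6, 7, 6 and 7 of the 10 genes at 1, 4, 7 and 14 d, where it differed for 35.6%, 45.3%, 38.1% and 32.2% of all probes tested in both tissues. In this fit Atf3, Jun, Klf6 and Smad1 changed more in DRG on all 4 days, and Fos and Stat3 more in SN. For Atf3 the difference was -4.87, -4.41, -3.94 and -3.87 (adjusted p from 3.00e-15 to 1.42e-13). For Smad1 it was -1.45, -1.32, -1.05 and -0.90, for Jun -1.2, -1.05, -0.66 and -0.57, and for Klf6 -0.92, -0.89, -0.56 and -0.41. At 14 d the difference of Klf6 was -0.17 with quantile normalization (adjusted p = 0.325), -0.17 with normexp and quantile normalization (0.354) and -0.16 in the authors' values (0.345), and it did not pass either with normexp and the 75th percentile (0.182) or with only the arrays compared (0.0743). With normexp and the 75th percentile, Klf6 at 7 d (adjusted p = 0.0798) and Jun at 7 and 14 d (0.0599 and 0.0990) did not pass, nor did Jun at 14 d with only the arrays compared (0.0740). For Stat3 it was 0.73, 0.82, 0.93 and 0.76 (adjusted p from 6.54e-06 to 0.000187). The Fos differences of 1.43, 1.48, 1.45 and 1.29 had the weakest support among these, with an adjusted p between 0.0165 and 0.0470, and lost their call in 5, 4, 4 and 9 of the fits without one array. Klf4 differed at 4 d (-1.38) and 14 d (-0.99), where it was lower than at 0 d in SN and higher, without passing the test, in DRG. For Egr1, Sox11 and Cebpb no difference passed. That at 1 d was -0.22 (SE 0.46) for Egr1 and 0.61 (SE 0.24, adjusted p = 0.0501) for Cebpb. The Sox11 differences were 0.46, -0.83, -1.08 and -0.79 (SE 0.48), and that of 7 d passed with quantile normalization (-1.31, adjusted p = 0.0229), in the authors' values (-1.31, 0.0250) and with only the arrays compared (0.0107). At 0 d Sox11 was well above background on 0 of 3 SN arrays and 1 of 3 DRG arrays. Neither the size nor the sign of its differences is therefore settled. The difference of Cebpb at 1 d passed under 6 of the alternatives that kept every array, quantile normalization (0.70, adjusted p = 0.0302) and the authors' values (0.78, 0.0154) among them.

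**Figure D3:**
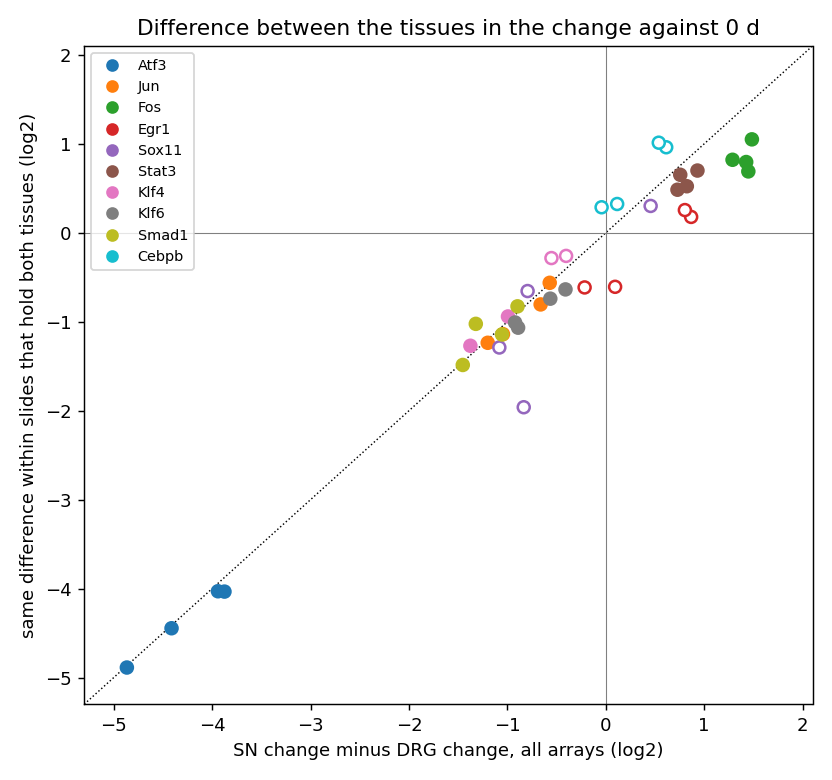
SN change minus DRG change against 0 d (log2) of each gene at 1, 4, 7 and 14 d, from the fit of all 30 arrays on the horizontal axis and within slides that hold both tissues on the vertical axis; filled points were called in the fit, open ones were not, and the dotted line marks equal values. Atf3, Jun, Klf6 and Smad1 lie below 0 and Fos and Stat3 above 0 on all 4 days in both readings, which share arrays.

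Each day had a slide with arrays of both tissues, which allowed the same difference within slides. It had the same sign as in the fit for 10, 9, 10 and 9 of the 10 genes at 1, 4, 7 and 14 d, and for all the called ones. The arrays used are a part of those in the fit, so the shared sign is not independent support. The share of all probes with the same sign was not counted. For Atf3 the difference within slides was -4.89, -4.45, -4.03 and -4.03. For Fos it was smaller than in the fit, at 0.79, 1.05, 0.69 and 0.82, and likewise for Stat3, at 0.48, 0.52, 0.70 and 0.65. The slide that held the SN arrays of 0 d held 1 array of DRG 0 d, on which all of these values rest. A fit with the slide as a fixed block gave the within-slide values of Fos again and is not a further reading of them. Under it the differences of Fos did not pass on any day (adjusted p from 0.292 to 0.536). Nor did those at 14 d of Jun (-0.56, adjusted p = 0.16) and Klf4 (-0.94, adjusted p = 0.0557). Under the same block Sox11 passed at 4 d (-1.96, adjusted p = 0.000155) and 7 d (-1.29, adjusted p = 0.00517), and Cebpb at 4 d (1.01, adjusted p = 0.0319). Both values of 4 d rest on 1 SN array of that day, replicate 3, which for Sox11 read -6.01 against -4.07 and -3.94 for its fellows. No SN array of 0 d was well above background for Sox11, so its p-values here do not show strong support.

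At 0 d, 5 of the 10 genes differed more than 2-fold between the tissues, where 35.4% of all probes did. Klf4 (2.63, SE 0.16), Atf3 (1.63, SE 0.11), Cebpb (1.18, SE 0.17) and Egr1 (1.1, SE 0.33) were higher in SN, and Stat3 (-1.18, SE 0.09) was higher in DRG. The call of Egr1 was lost without replicate 1 of DRG 0 d (0.78) or replicate 2 of SN 0 d (0.71), and that of Cebpb without replicate 1 of SN 0 d (0.95). With the slide as a fixed block, Stat3 (-0.90) and Cebpb (0.95) fell under the fold limit, while Klf6 (1.08) passed it. The fit also called Sox11 there, so that 5 genes were again called but not the same 5. That call of Sox11 compares signals mostly not well above background and is not read as a difference. Klf6 (0.96) and Smad1 (0.56) had an adjusted p under 0.05 below the fold limit, and Jun (0.11, SE 0.12) and Fos (-0.46, SE 0.35) did not pass. Sox11, which was well above background on 1 of the 6 arrays of 0 d, is given no fold. The dimmer probes differed from these calls. By them Klf6 (1.08) passed the fold limit, Stat3 (-0.88) stayed under it and Smad1 did not pass (0.05, adjusted p = 0.748 by limma). Atf3 thus stood higher in SN than in DRG at 0 d, with 2.99 to 3.40 against 1.4 to 1.67, and lower on every later day, with 2.75 to 3.57 against 5.61 to 6.20. Klf4 stood higher in SN on all 5 days, with 2.45 to 3.70 in SN and 0.38 to 1.5 in DRG.

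Neighbouring days after injury were compared as well. Between 1 and 4 d, 3 of the 10 genes differed in SN, where 37.9% of all probes did at an adjusted p under 0.05: Jun rose (0.71, SE 0.12, adjusted p = 0.00096), and Sox11 (-1.72, SE 0.40, adjusted p = 0.00597) and Stat3 (-0.23, SE 0.09, adjusted p = 0.0492) fell. Without replicate 3 of SN 4 d, the change of Sox11 was -1.06. In DRG 3 of the 10 differed, where 20% of all probes did: Jun rose (0.55, SE 0.12, adjusted p = 0.00973), and Cebpb (-0.46, SE 0.12, adjusted p = 0.0202) and Stat3 (-0.33, SE 0.10, adjusted p = 0.0435) fell. The SN and the DRG call of Stat3 were each lost in 6 of the fits without one array, and that of Cebpb in 3. With the slide as a fixed block none of these calls was kept: in SN the values were 0.67 for Jun (adjusted p = 0.12), -0.51 for Sox11 (0.338) and -0.27 for Stat3 (0.223), and in DRG 0.57 for Jun (0.266), -0.87 for Cebpb (0.185) and -0.31 for Stat3 (0.234). Under this block Sox11 in DRG was called with the opposite sign to the fit (1.76, adjusted p = 0.00447 against -0.44). The DRG arrays of 4 d shared their slide only with replicate 3 of SN 4 d, through which alone the block ties them to other slides. For Sox11 that array read -6.01, against -4.07 and -3.94 for its fellows, so the reversed value rests on 1 outlying array. From 4 to 7 d and from 7 to 14 d, limma called 0 of the 10 genes by their brightest probes in either tissue. Of all probes, 17.1% and 11.6% were called in SN and 0.646% and 0.535% in DRG. At an unadjusted p under 0.05 the counts were 2 and 0 in SN and 2 and 3 in DRG, and by the methods' t-test they were 1 and 2 in SN and 2 and 2 in DRG. The share of all probes at an unadjusted p was not counted, so these counts cannot be set against the shares above. Dimmer probes were called by limma on these later days. From 4 to 7 d in SN these were Stat3 (0.63, adjusted p = 0.00714) and Smad1 (0.44, adjusted p = 0.0442). From 7 to 14 d in DRG it was Stat3 (-0.69, adjusted p = 0.0298).

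For the 3 genes with 2 probes, the probes were near each other for Smad1 in DRG and differed for Stat3. The dimmer probe of Smad1, which crosses an intron, changed by 1.13, 1.06, 1.25 and 0.98 in DRG and was called on the same days as the brighter, while its SN changes of 0.01, 0.11, 0.55 and 0.34 lay above those of the brighter probe. The dimmer probe of Klf6 changed by 0.94, 0.41, 0.60 and 0.27 in DRG, with none called, and between -0.28 and -0.11 in SN. The dimmer probe of Stat3 changed by 0.98, 0.36, 0.99 and 0.66 in SN, with none called, so that its value at 4 d was under that at 7 d while the brighter probe read 1.18 and 1.11. In DRG it changed by 0.31, -0.07, 0.43 and -0.26, and its sign at 4 and 14 d was opposite to that of the brighter probe. With the mean of both probes, Stat3 in SN at 4 d was 0.77 and not called. Over all 13 probes, 5, 5, 5 and 3 were called in DRG and 4, 3, 4 and 4 in SN at 1, 4, 7 and 14 d.

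**Figure D4:**
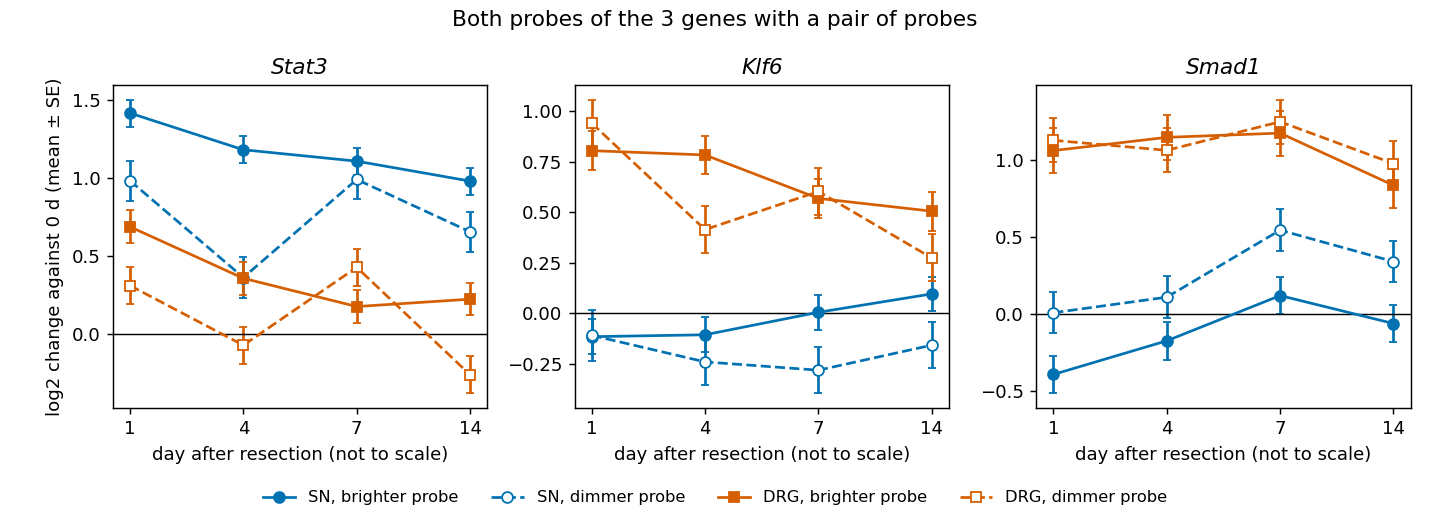
Change against 0 d (log2, with bars of 1 standard error) read by the brighter probe (solid lines) and the dimmer probe (dashed lines) of Stat3, Klf6 and Smad1 in SN and DRG at 1, 4, 7 and 14 d, with a day axis not to scale. The lines of Smad1 in DRG run together between 0.84 and 1.25, and the dimmer probe of Stat3 in SN lies below the brighter one on all 4 days.

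Over the 30 arrays, after taking off the 0 d mean of each tissue, the patterns of Atf3, Klf6 and Smad1 were alike, with Pearson r of 0.95 for Atf3 with Klf6 and with Smad1, and Atf3 with Jun gave 0.83. Fos followed Stat3 (0.83) and Egr1 (0.71) and ran against Klf4 (-0.72). The points share tissue and day, so these are descriptions and carry no p. Other genes were searched among probes tested in both tissues, leaving out names that are only accession, LOC or RGD numbers. Among them, the pattern most like that of Atf3 belonged to Gadd45a (0.98), which encodes a stress-induced growth arrest protein. Fos was most like Junb (0.95), another AP-1 subunit, Stat3 most like Lix1l (0.97) and then Socs3 (0.95), the feedback inhibitor of JAK-STAT signalling, Smad1 most like Gadd45g (0.95), and Klf6 like Flrt3 (0.94) and Crem (0.94). Jun was most like Als2cr7 (0.95) and Klf4 most like Fzd4 (0.89). Sox11, mostly not well above background at 0 d, was most like Olr1744 (0.92) and Prm3 (0.92). The best matches were looser for Cebpb (Mrps18b, 0.85) and Egr1 (Stra6, 0.77).

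The other genes of the same pathways were counted in 10 lists against the shares of all probes given above. Of 18 genes known to be induced in injured sensory neurons, 12, 17, 17 and 17 were upregulated in DRG at 1, 4, 7 and 14 d, with a median change of 2.30, 3.04, 3.34 and 2.84, and 6, 5, 6 and 4 were in SN, with 2, 1, 2 and 2 downregulated. The list was made for this induction, with earlier results of these data known, so its high share in DRG is a description and not a test. Vip, the neuropeptide VIP, rose by 4.45, 8.03, 8.13 and 8.18 in DRG, and Gal, the neuropeptide galanin, by 1.27, 4.18, 4.32 and 4.14. Ecel1, a membrane peptidase of injured neurons, rose by 2.60, 3.82, 4.59 and 4.34 in DRG. In SN, Vip was lower on all 4 days (-1.90, -1.98, -2.20 and -1.84) and Gal was downregulated at 1, 7 and 14 d (-1.68, -1.22 and -1.67).

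Of 10 repair genes linked to JUN in Schwann cells, 4, 6, 8 and 7 were upregulated in SN and 1 downregulated on each day, with a median of 0.80, 1.46, 1.67 and 1.33, while 0, 2, 2 and 4 were upregulated in DRG. Ngfr, the p75 neurotrophin receptor, rose by 1.91, 3.54, 3.58 and 3.28 in SN, Btc, an EGF family ligand, by 2.17, 2.32, 2.12 and 2.14, and Gdnf, a neurotrophic factor, by 1.73, 1.89 and 1.65 at 4, 7 and 14 d. The change of Jun itself in SN was 0.04 at 1 d and passed 2-fold at 14 d.

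Of 16 partners of AP-1 and other bZIP factors, 6, 7, 7 and 6 were upregulated and 1 downregulated in SN, with a median of 0.58, 0.73, 0.62 and 0.63, and 3, 4, 6 and 6 were upregulated in DRG. Fosl1, which encodes the FOS relative FRA-1, rose by 5.75, 5.25, 3.53 and 1.99 in SN and by 1.97, 1.17, 1.42 and 1.5 in DRG. Junb rose by 1.60, 1.87, 1.95 and 1.51 in SN, and its DRG changes of 0.63 to 0.73 were not called. The downregulated gene in SN was Atf5 (-1.17, -1.66, -1.83 and -1.42). Of 14 other immediate early genes, 2, 3, 2 and 2 were upregulated and 0, 3, 2 and 2 downregulated in SN, with a median of 0.14, -0.33, -0.39 and -0.31, and of 13 tested in DRG 1 was upregulated, at 14 d. Egr3, a relative of Egr1, rose by 1.93, 1.12, 1.57 and 1.83 in SN and by 1.53 in DRG at 14 d, whereas Arc, an activity-induced gene of neurons, fell in SN at 4, 7 and 14 d (-2.46, -2.51 and -2.59).

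Of 20 genes of the gp130 and JAK-STAT pathway tested in SN, 8, 6, 7 and 6 were upregulated and 0, 2, 2 and 1 downregulated, with a median of 0.79, 0.62, 0.84 and 0.47, and of 19 tested in DRG 2, 1, 1 and 1 were upregulated. Il6, the cytokine interleukin-6, rose in both tissues, by 5.93, 4.78, 4.59 and 3.34 in SN and by 5.0, 3.82, 3.45 and 2.93 in DRG. Clcf1, which encodes a cytokine of the same family, rose in SN by 3.39, 2.62, 1.95 and 1.27. Socs3 rose by 2.92, 2.25, 2.09 and 2.0 in SN and by 1.67 at 1 d in DRG, with DRG changes of 0.65 to 0.81 later that were not called.

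**Figure D5:**
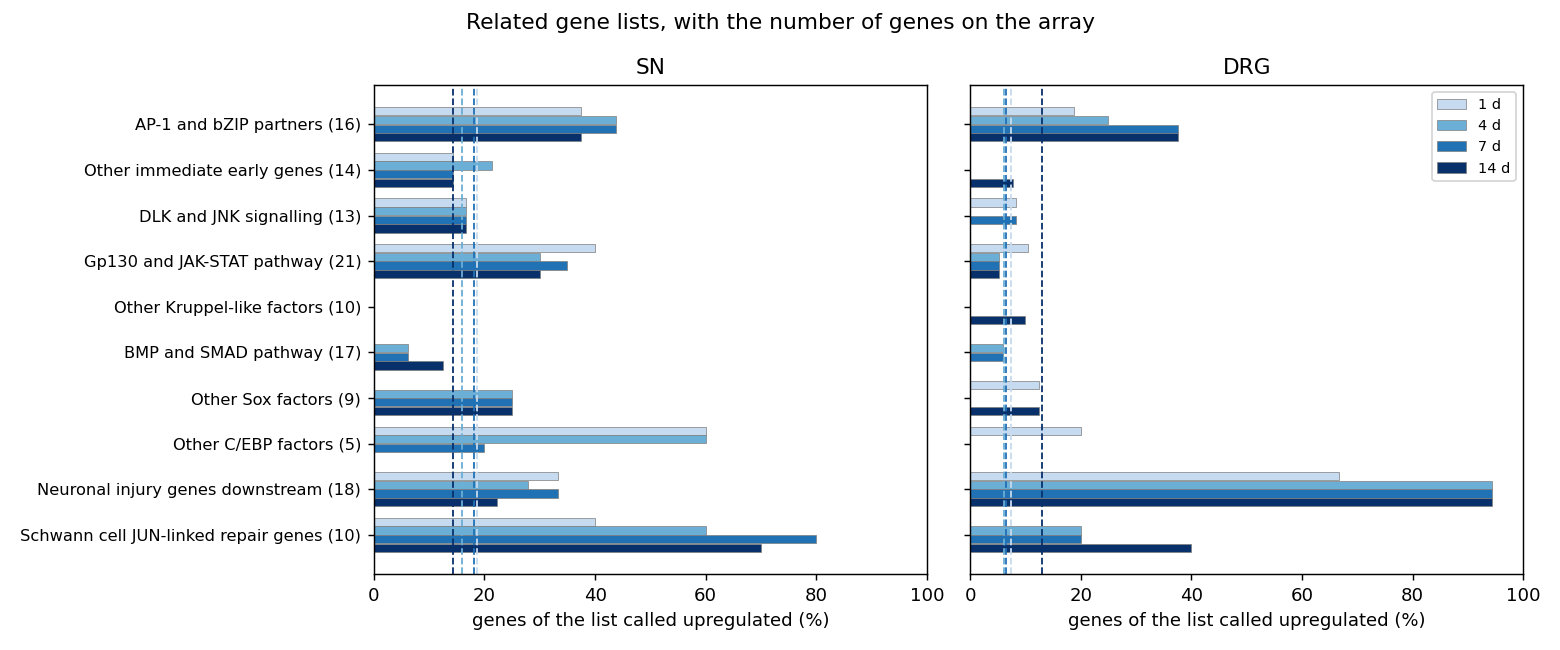
Percentage of the tested genes of each of the 10 pathway lists that were called upregulated in SN and DRG at 1, 4, 7 and 14 d, with the number of listed genes on the array in brackets; dashed lines mark the percentage of all probes called on that day. The list of genes known to be induced in injured sensory neurons has 17 of 18 called in DRG from 4 d, and the list of other Kruppel-like factors has none in SN.

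Among the families of the single members, 10 other Kruppel-like factors had 0 upregulated and 3, 3, 2 and 1 downregulated in SN, with a median of -0.58, -0.81, -0.39 and -0.27. Klf15 changed by -1.28, -2.0, -2.40 and -1.60 and Klf9 by -1.02, -1.03 and -1.53 at 1, 4 and 7 d, on days when Klf4 was lower in SN too, and in DRG 1 of the 10 was upregulated, at 14 d. Of 5 other C/EBP factors, 3, 3, 1 and 0 were upregulated in SN, with a median of 1.23, 1.24, 0.85 and 0.45, among them Cebpa (1.38, 1.24 and 1.3 at 1, 4 and 7 d), and 1 in DRG, Cebpd at 1 d (1.11). Of 8 other Sox factors, 0, 2, 2 and 2 were upregulated in SN, which were Sox4 (1.79, 2.64 and 2.46) and Sox2 (1.2, 1.39 and 1.21) at 4, 7 and 14 d, with 1 downregulated at 14 d and a median of -0.08, 0.16, 0.58 and 0.54, and 1, 0, 0 and 1 were upregulated in DRG. In the BMP and SMAD pathway, of 16 genes tested in SN 0, 1, 1 and 2 were upregulated and 0, 2, 2 and 4 downregulated, the ligands Bmp4 (-1.67, -1.71 and -1.66) and Bmp6 (-1.0, -1.11 and -1.70) at 4, 7 and 14 d among them, with a median between -0.18 and 0.02. In DRG, where Smad1 rose, 0, 1, 1 and 0 of 17 were upregulated, and the one was Grem1, a secreted BMP antagonist (1.99 at 4 d and 1.33 at 7 d). Of 12 genes of DLK and JNK signalling, 2 were upregulated in SN on each day, with 0, 2, 2 and 1 downregulated and a median between 0.06 and 0.28, and 1, 0, 1 and 0 were upregulated in DRG, where it was Mapk8ip3, a JNK scaffold (1.24 and 1.16, with 1.12, 3.0, 2.88 and 2.39 in SN).

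Cell type markers moved beside these values, and their part in them was not tested. In SN the summed signal of 8 myelinating Schwann cell markers was 918 to 1091 at 0 d and 407 to 503 at 4 and 7 d, with 3, 7, 7 and 5 of the 8 downregulated and none upregulated at 1, 4, 7 and 14 d. That of 11 macrophage markers was 206 to 242 at 0 d and 423 to 501 at 4 d, with 6, 10, 8 and 8 upregulated, and that of 7 proliferation genes was 11.6 to 18.4 at 0 d and 67.5 to 73.9 at 4 d. At 1 d in SN the macrophage sum was 222 to 273 and the median change of its markers 1.06, with 5 of 7 neutrophil markers (median 4.15) and 5 of 7 T cell markers (median 1.37) upregulated as well. In DRG the sensory neuron sum was 1173 to 1203 at 0 d, 1115 to 1192 at 1 d and 838 to 944 at 14 d, with 0 of 14 markers called on any day, and the macrophage sum was 59.3 to 88.2 at 0 d, 62.7 to 76.0 at 1 d and 132 to 141 at 7 d. The macrophage markers had 0, 6, 7 and 6 of 11 upregulated in DRG. The summed signal of 6 skeletal muscle markers in SN ran from 98.4 to 1327 at 0 d and from 5.54 to 250.2 later, and 6 genes of handling stress, 5 of them bright enough to be tested, summed to 20.1 to 24.8 in SN at 0 d and to 31.2 to 35.5 at 1 d, with 2, 1, 1 and 0 of the 5 upregulated and a median change of 0.79, -0.13, -0.41 and -0.29. In DRG their sum was 52.4 to 56.0 at 0 d and 83.7 to 121.6 later, with 0, 1, 1 and 1 of the 5 upregulated and medians between -0.08 and 0.10.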

How the data were processed

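RNA of the proximal nerve and of the L4-6 ganglia was labelled with Cy3 and hybridised to Agilent whole genome arrays. The authors deposited 1 scanner file per array, made by Agilent Feature Extraction 10.5.1.1, whose processed signal is a background-corrected intensity on a linear scale; the authors also deposited a matrix of log2 values over 41090 probes, which they made by quantile normalization, and its filters are not given in the sources used here. From the scanner files, log2 of the processed signal was averaged over the unflagged spots of a probe, and the 75th percentile of the array was subtracted. A probe was tested in a tissue where at least 1 day had all 3 of its arrays well above background (35163 probes in SN, 34977 in DRG and 33806 in both), and a gene was read from its brightest probe. Comparisons with 0 d and between days used limma 3.58.1 in R 4.3.3 on the 15 arrays of a tissue, and those between tissues used all 30, with Benjamini-Hochberg adjustment. The fits were tested on simulated data. No gene probe was saturated. The number of arrays limits the precision. The methods' t-test, other backgrounds (normexp with an offset of 50), normalizations, probe rules, slide and replicate blocks, the authors' values and fits without each array were tried as alternatives. Sequences come from the scanner files' positions and from RefSeq tables. Gene names are those of the array design. Labels and methods differ on the kit used for RNA extraction. The genes, lists and tests were chosen with earlier results of these data known, up to 4 genes were named per list, those with the smallest adjusted p among the called, and 2 most similar genes were sought per member.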

Additional observations from a re-analysis of the deposited data

Results flagged for a closer look

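The change of 7 genes against 0 d differed between SN and DRG on 1 or more days at an adjusted p under 0.05 in limma's test of the difference. Of 40 such tests, 26 passed. Of all probes tested in both tissues, 35.6%, 45.3%, 38.1% and 32.2% passed at 1, 4, 7 and 14 d. The values are SN change minus DRG change on the log2 scale at 1, 4, 7 and 14 d. They were -4.87, -4.41, -3.94 and -3.87 for Atf3. They were -1.20, -1.05, -0.66 and -0.57 for Jun, -0.92, -0.89, -0.56 and -0.41 for Klf6, and -1.45, -1.32, -1.05 and -0.90 for Smad1. For Fos they were 1.43, 1.48, 1.45 and 1.29, and for Stat3 0.73, 0.82, 0.93 and 0.76. Klf4 differed at 4 d (-1.38) and at 14 d (-0.99). These tests share the arrays of 0 d across days and are not independent. The Fos differences did not pass on any day with the slide as a fixed block or with only the arrays compared. Under that block, those of Jun and Klf4 at 14 d did not pass either. That of Klf6 at 14 d did not pass in the authors' values (adjusted p = 0.345 by limma).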

How the results depend on the processing

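Values called under at least 1 setting were compared over all settings. Apart from fits without an array, 1169 single values kept direction and side of the threshold, 84 lost a call, 47 gained one and 6 reversed; without each array the counts were 690, 50, 31 and 3. Of 190 pairs of gene and comparison, 95 were called under no setting, and 47 of these changed sign somewhere. With normexp and the 75th percentile, 2 genes were called in SN at 1 d and 1 at 14 d, 4 differed between tissues in their change at 14 d, 1 differed between 4 and 1 d in SN and 0 did in DRG, and the changes of Sox11 in SN were 1.48, 0.90, 0.36 and 1.05, none called. The methods' t-test with Benjamini-Hochberg adjustment called 2 in SN at 14 d. With normexp and quantile normalization, 3 genes differed between tissues at 0 d and 1 between 7 and 4 d in SN. Between 4 and 1 d in SN, 5 genes differed with quantile normalization, with or without normexp, and with the authors' values. With the slide as a fixed block, 4 genes differed between tissues in their change at 14 d, and between 4 and 1 d 0 differed in SN and 1 in DRG. Under that block the changes from 1 to 4 d reversed for Atf3 in SN (-0.0106), Klf6 in DRG (0.0402) and Sox11 in DRG (1.76, adjusted p = 0.00447 by limma). The DRG values rest on replicate 3 of SN 4 d, the only array of another group on the slide of DRG 4 d. For Sox11 it read -6.01, against -4.07 and -3.94 for its fellows. The cause was otherwise not tested. Sox11 also reversed between tissues at 0 d with normexp (0.0707), and from 4 to 7 d in SN with the slide as a random block (0.0312). From 4 to 7 d in SN, the mean of the probes reversed Stat3 (0.28) and gave 2 calls. With only the arrays compared, 1 gene differed between 4 and 1 d in DRG, and with both tissues in 1 fit 1 did between 7 and 4 d. Without single arrays, calls between neighbouring days ranged from 0 to 2 from 4 to 7 d in SN (2 without replicate 3 of SN 4 d), from 1 to 2 from 1 to 4 d in DRG (1 without replicate 3 of DRG 1 d or replicate 2 or 3 of DRG 4 d) and from 0 to 3 from 4 to 7 d in DRG (3 without replicate 1 of DRG 4 d). Sox11 from 4 to 7 d in SN ran from -0.75 to 0.29, and Klf6 from 1 to 4 d in DRG from -0.11 to 0.0791. The Fos differences between tissues lost their call in 4 to 9 of these fits, with values from 0.91 to 1.98. In no comparison looked at did every pair of arrays with the same replicate number depart alike from its group means. Nerve was set against ganglion in this way only at 0 d (r of -0.12, -0.09 and 0.21). A pairing of the tissues on later days is therefore not settled, and the fits take the arrays as independent. With a replicate block, 4, 3, 4 and 4 genes were called in SN and 4, 4, 4 and 3 in DRG. The fall of Stat3 from 1 to 4 d was then no longer called in SN or DRG. The number of arrays and the dim signal of Sox11 at 0 d limit what can be shown.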
